A study of Mus musculus with 18 samples.

Results

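The genes described here are 34 genes of fat cell differentiation and lipid storage, followed across 18 Affymetrix mouse arrays of cells under reprogramming to induced pluripotent stem cells (iPSC). The list grew from genes seen to be lower in cultures without Tcf3, so that difference chose the members and is given below as a description, with no test. A probe set named for 1 gene was listed for 31 of the 34, and each gene is represented by its probe set of highest mean across the arrays. Of these, 29 were above the floor of the deposited values on at least 1 array, out of 14228 such genes among 17903 in all. Pck1 and Aqp7 were at the floor on all 18 arrays, and Plin1, Cfd and Acsl1 had no probe set named for them in the annotation used here. The members were grouped by role into 5 regulators, 4 secreted proteins, 7 droplet and lipolysis proteins, 6 proteins of uptake and transport, 4 enzymes of fatty acid synthesis, 6 enzymes of triglyceride assembly and 2 small membrane proteins.

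All cells carried introduced reprogramming factors, either OCK (Oct4, c-Myc and Klf4) or OSK (Oct4, Sox2 and Klf4). OCK reprogramming cultures, wild-type (wt) or knockout (ko) for Tcf3, a DNA-binding repressor of the Wnt pathway now named Tcf7l1, gave 1 array of each genotype at days 11, 15, 19, 22 and 26. The clones were 1 OSK iPSC clone of wt cells, 2 OSK iPSC clones of ko cells and 2 OCK iPSC clones of ko cells, the ko clones of each kind coming from 2 cell lines. A partially reprogrammed OCK clone of Tcf3 wt cells was treated with control siRNA on 1 array, or with siTcf3-A or siTcf3-B on 1 array each, and collected on day 2. It is a single clone. The labels name neither the tissue of the starting cells nor any step that induces fat cells, and no array is labelled as fat cells.

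Values are log2 RMA signal, and a value of 5.64, the log2 of 50, is a floor that stands for any lower level. Between 12102 and 12499 genes were above it on an array, and array medians lay between 5.85 and 5.94. No label says whether clones, siRNA arrays or days stem from separate cultures, and the spread behind each p-value, that between arrays, may therefore be technical. An effect of genotype cannot be told apart from another difference that the wt and ko cultures kept throughout. Tcf7l1 itself read 9.06 to 9.90 in wt cultures and 8.10 to 9.48 in ko cultures, lower in ko on each matched day. Where its probes lie relative to the deleted part is not known here.

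Fat cells form from mesenchymal precursors. C/EBPbeta and C/EBPdelta act early and induce PPARgamma and C/EBPalpha, which then maintain each other and switch on the genes of the mature cell. Those genes import fatty acids, build triglyceride, coat the lipid droplet and encode hormones such as adiponectin and leptin. Beta-catenin signalling with Tcf/Lef factors is known to hold back this programme in precursors.

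RefSeq promoters of the mouse assembly GRCm38.p6 show the letters just before the start of a regulator and of a pair of its well-known target genes all highest on day 15 in the cultures. The C/EBP site letters TTGCNNAA, searched on both strands, are in capitals. Each line gives the 250 bases before the start, on the gene's own strand. The windows are chr6:115421816-115422065 (plus strand) for the Pparg start with matches, chr6:113434765-113435014 (minus strand) for a start of Cidec, and chr16:23146286-23146535 (plus strand) for Adipoq.
Pparg: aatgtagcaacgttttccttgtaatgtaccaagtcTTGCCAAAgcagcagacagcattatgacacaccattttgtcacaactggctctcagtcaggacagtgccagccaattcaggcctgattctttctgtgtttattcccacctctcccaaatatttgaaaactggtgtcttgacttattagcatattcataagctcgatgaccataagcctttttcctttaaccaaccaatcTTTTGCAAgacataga
Cidec: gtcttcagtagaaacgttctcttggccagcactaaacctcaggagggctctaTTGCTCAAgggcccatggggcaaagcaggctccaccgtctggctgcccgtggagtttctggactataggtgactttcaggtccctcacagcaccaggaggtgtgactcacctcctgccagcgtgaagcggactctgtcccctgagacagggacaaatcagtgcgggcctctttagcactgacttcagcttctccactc
Adipoq: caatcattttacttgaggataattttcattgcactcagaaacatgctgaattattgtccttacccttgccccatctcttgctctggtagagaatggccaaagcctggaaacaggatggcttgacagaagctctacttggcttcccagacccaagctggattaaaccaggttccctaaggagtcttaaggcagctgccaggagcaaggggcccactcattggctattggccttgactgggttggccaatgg
Counted from -1 for the base next to the start, the 2 matches of Pparg begin at -215 and -16, and the match of Cidec begins at -198. Adipoq has none in this window, and the other windows of Pparg and Cidec, not printed, hold none either. The promoter table held 32 windows of 24 members, and 4 of them, 1 each of Pparg, Cidec, Lep and Plin1, held TTGCNNAA, against 9.56% of all 32851 windows of this length. No other motif is marked. A match is a description of letters and not of binding.

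Between days 11 and 15 of the OCK cultures 5 of 29 members rose past the test, where 0.132% of all genes did. Not called either way were 23 members. The test pooled wt and ko, so that a call favours genes that rose in both genotypes, and the 5 did. Adiponectin rose most, by 32.3-fold, and the fatty acid importer Cd36, the glycerol-3-phosphate dehydrogenase Gpd1, the lipolysis inhibitor G0s2 and the fatty acid carrier Fabp4 rose with it. From day 15 to day 26, 17 of 29 members fell, the 5 regulators among them, where 20.6% of all genes did. Of the 4 enzymes of fatty acid synthesis 3 rose, where 19.2% of all genes did. On all 8 clone arrays 9 members of 29 were at the floor, adiponectin, Fabp4, Pparg and Cd36 among them. Of the 14228 genes above the floor on any array, 13571 were above it on at least 1 clone array.

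Adipoq, the fat cell hormone adiponectin, read 7.0, 11.91, 10.99, 11.01 and 10.46 in wt cultures on days 11, 15, 19, 22 and 26, and 6.05, 11.17, 9.96, 9.72 and 9.40 in ko cultures. Day 11 was the lowest and day 15 the highest day in both genotypes, and every later day stayed far above day 11. All 5 iPSC clones and the 3 partial clone arrays were at the floor.

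Fabp4, the cytosolic carrier that binds fatty acids in fat cells and macrophages, read 12.32, 13.47, 13.08, 13.30 and 13.03 in wt cultures, and 11.88, 12.85, 12.75, 12.63 and 12.82 in ko cultures. It was already high on day 11 and, like adiponectin, highest on day 15. Every clone array was at the floor.

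Cd36, the fatty acid importer shared by fat cells and macrophages, read 7.79, 10.03, 9.30, 9.68 and 8.63 in wt cultures, and 7.30, 9.44, 7.89, 8.21 and 7.89 in ko cultures. Its peak on day 15 was followed by a steeper drop to day 19 in ko. Every clone array was at the floor here too.

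Lpl, the lipase that frees fatty acids from circulating lipoproteins, read 13.39, 13.73, 13.44, 13.28 and 13.43 in wt cultures, and 13.13, 13.59, 13.13, 12.63 and 13.03 in ko cultures. It was high throughout, with little change between days. The iPSC clones had 8.47 (OSK wt), 8.18 and 8.16 (OSK ko), and 9.95 and 8.76 (OCK ko), and the partial clone had 8.23, 8.70 and 8.39 with control siRNA, siTcf3-A and siTcf3-B. All clone arrays thus lay below all culture arrays.

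Slc2a4, the insulin-responsive glucose transporter, stayed between 5.85 and 6.32 in the cultures, close to the floor. OSK clones read 6.59 to 6.72 and lay above every culture array.

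Of the droplet genes, Cidec and Plin4 were above the floor only in cultures, while the others measured were also seen in iPSC clones. Cidec, which helps droplets fuse and grow, was at the floor on day 11 in both genotypes. It then read 8.27, 7.53, 7.49 and 6.71 in wt on days 15 to 26, and 7.72, 6.28, 5.88 and the floor in ko. It was at the floor on every clone array.

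Plin4, a droplet coat protein, read 6.77, 8.65, 8.10, 7.85 and 7.42 in wt cultures, and 6.96, 7.42, 6.97, 6.62 and 6.35 in ko cultures. It peaked on day 15 in both, with a smaller step in ko, and was at the floor on every clone array.

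G0s2, an inhibitor of the triglyceride lipase Pnpla2, read 8.81, 10.08, 10.0035, 9.42 and 9.01 in wt cultures, and 8.02, 9.65, 8.96, 8.65 and 8.75 in ko cultures. It also peaked on day 15. Unlike Cidec and Plin4, G0s2 was above the floor in the iPSC clones, at 7.14 in OSK wt, 7.71 and 7.77 in OSK ko, and 7.30 and 6.58 in OCK ko. The partial clone was at the floor with control siRNA and siTcf3-A, and at 5.69 with siTcf3-B.

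Cidea, a relative of Cidec known from brown fat, ran the opposite way. In the cultures it read 6.91 in wt and 6.67 in ko on day 11, 5.83 to 5.92 on days 15 and 19, and the floor on days 22 and 26. The OCK ko clones had 9.44 and 8.12, above the 6.81 and 6.80 of the OSK ko clones and the 6.08 of the OSK wt clone. The partial clone was at the floor.

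The lipases moved less. Lipe, the hormone-sensitive lipase, read 6.92, 7.57, 7.12, 6.90 and 6.96 in wt cultures, and 6.97, 7.42, 6.67, 6.67 and 6.65 in ko cultures. Its clone arrays lay between 5.75 and 7.02, so that cultures and clones overlapped. Pnpla2, the first lipase of triglyceride breakdown, lay between 7.85 and 8.88 in the cultures and between 7.77 and 8.41 in the clones, with its highest value on day 15 in both genotypes.

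Of the other hormones, Lep, which encodes leptin, was above the floor only in wt cultures on day 15 (6.54) and day 22 (6.26). Retn, which encodes resistin, read 6.43, 7.50, 6.65, 7.05 and 6.69 in wt, and 6.36, 6.99, 6.72, 6.76 and 6.49 in ko. Its clone arrays, at 6.15 to 6.97, overlapped the cultures.

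Mrap, a membrane partner of the ACTH receptor that is induced in fat cells, was at the floor on day 11 in both genotypes. On the later days wt cultures read 7.63, 7.25, 7.52 and 6.76, and ko cultures 6.85, 6.77, 5.86 and 6.15. Adig, a small fat cell membrane protein also called adipogenin, rose above the floor only in wt, at 6.20, 5.82 and 5.91 on days 15, 19 and 22. Both genes were at the floor on every clone array.

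**Figure D1:**
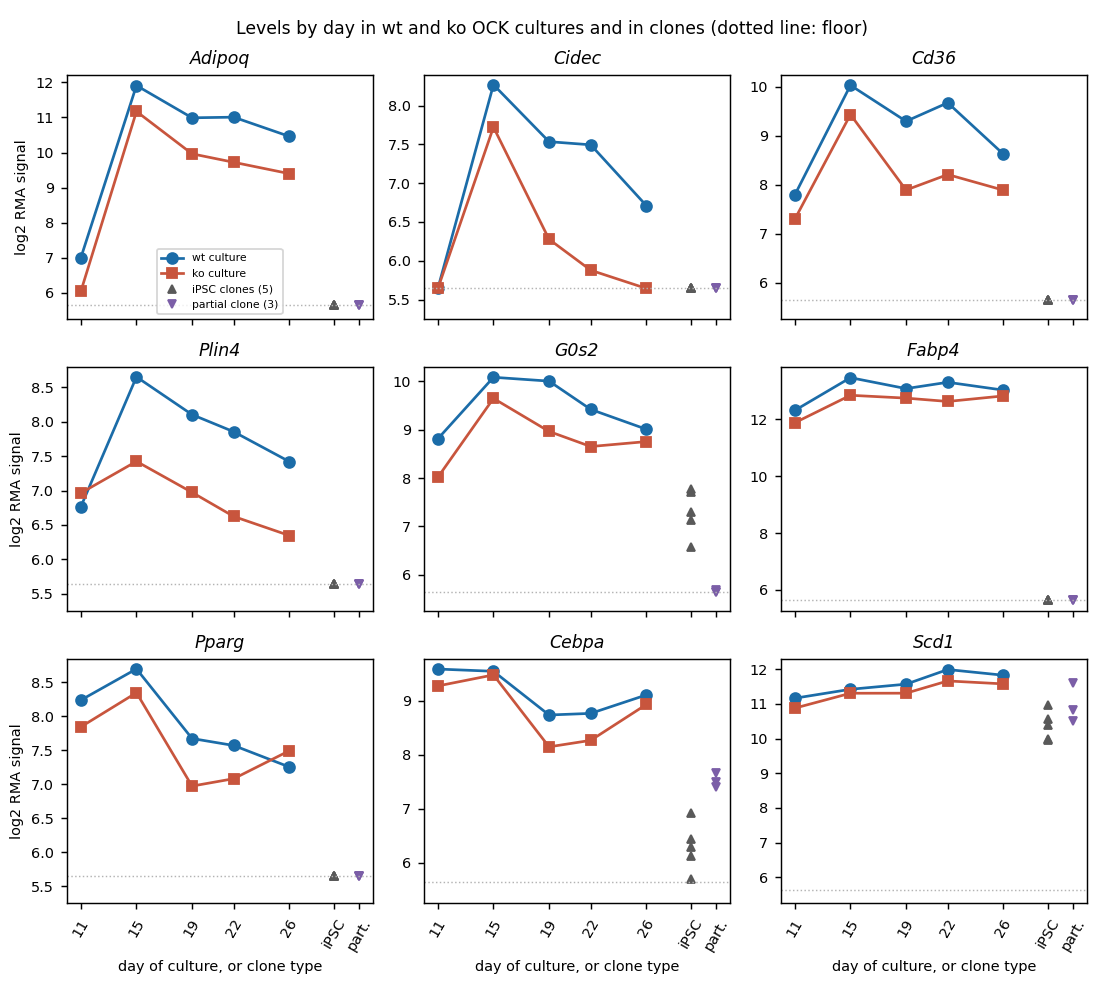
Log2 RMA signal (vertical axes) by day of culture (horizontal axes) of 9 members in wt and ko OCK cultures, with the 5 iPSC clones and 3 partial clone arrays at the right of each panel, the floor of 5.64 dotted and each point a single array. Adipoq, Cidec, Cd36 and Plin4 show their highest point on day 15 in both genotypes, with wt above ko on that day.

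The regulators were already well above the floor on day 11. Pparg, the master regulator of the fat cell, read 8.24, 8.70, 7.67, 7.57 and 7.26 in wt cultures, and 7.85, 8.35, 6.97, 7.08 and 7.49 in ko cultures. Day 15 was the highest, but day 11 was only slightly lower. All 8 clone arrays were at the floor.

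Cebpa, its partner, read 9.59, 9.55, 8.74, 8.77 and 9.11 in wt cultures, and 9.28, 9.48, 8.15, 8.27 and 8.93 in ko cultures. Days 11 and 15 were the highest, and day 26 lay above days 19 and 22 in both genotypes. The iPSC clones had 5.69 in OSK wt, 6.30 and 6.13 in OSK ko, and 6.92 and 6.44 in OCK ko. With 7.50, 7.65 and 7.40 under control siRNA, siTcf3-A and siTcf3-B, the partial clone lay between iPSC clones and cultures.

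Cebpb, an early inducer, read 12.26, 12.24, 12.18, 11.69 and 11.78 in wt cultures, and 12.32, 12.57, 11.93, 11.17 and 11.79 in ko cultures. The other early inducer, Cebpd, read 12.08, 12.18, 12.07, 11.34 and 11.42 in wt, and 12.17, 12.21, 11.90, 11.01 and 11.43 in ko. For both genes the first 3 days were the highest in wt. The iPSC clones had 9.18 to 10.09 for Cebpb and 6.89 to 8.52 for Cebpd, all below the partial clone at 10.51 to 10.83 and 9.98 to 10.56.

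Srebf1, the regulator of lipid synthesis, stayed between 9.34 and 9.68 in the cultures and between 9.22 and 9.44 in the iPSC clones. The partial clone, at 9.80 to 9.89, lay above all of them.

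The enzymes of fatty acid synthesis, which every growing cell uses, kept high signals in cultures and clones. Scd1, the delta-9 desaturase, read 11.17, 11.42, 11.57, 11.99 and 11.83 in wt cultures, and 10.88, 11.31, 11.31, 11.66 and 11.58 in ko cultures. It was lowest on day 11 and highest on day 22 in both genotypes. Fasn, the fatty acid synthase, lay between 10.10 and 11.02 in the cultures and between 10.42 and 11.25 in the clones. Acly, which makes cytosolic acetyl-CoA, was at 11.68 to 12.07 in the cultures and higher, at 12.49 to 12.76, in all 5 iPSC clones. Acaca, the acetyl-CoA carboxylase, spanned 9.38 to 10.13 over all cultures, with the clones inside that range.

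Of the assembly enzymes, Gpd1, which supplies glycerol phosphate, read 6.47, 8.28, 6.99, 7.32 and 7.0 in wt cultures, and 6.30, 7.50, 6.75, 6.91 and 6.66 in ko cultures. Only day 15 stood out, in both genotypes. Dgat2, an acyltransferase of the last step of triglyceride synthesis, read 8.59, 9.52, 8.96, 8.72 and 8.68 in wt, and 8.35, 9.10, 8.21, 8.74 and 8.48 in ko. Its clone arrays, at 6.89 to 7.55, lay below every culture array. Agpat2, Lpin1 and Dgat1, the remaining enzymes of that route, lay at 8.37 to 9.24, 8.86 to 9.47 and 5.70 to 6.12 in the cultures.

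**Figure D2:**
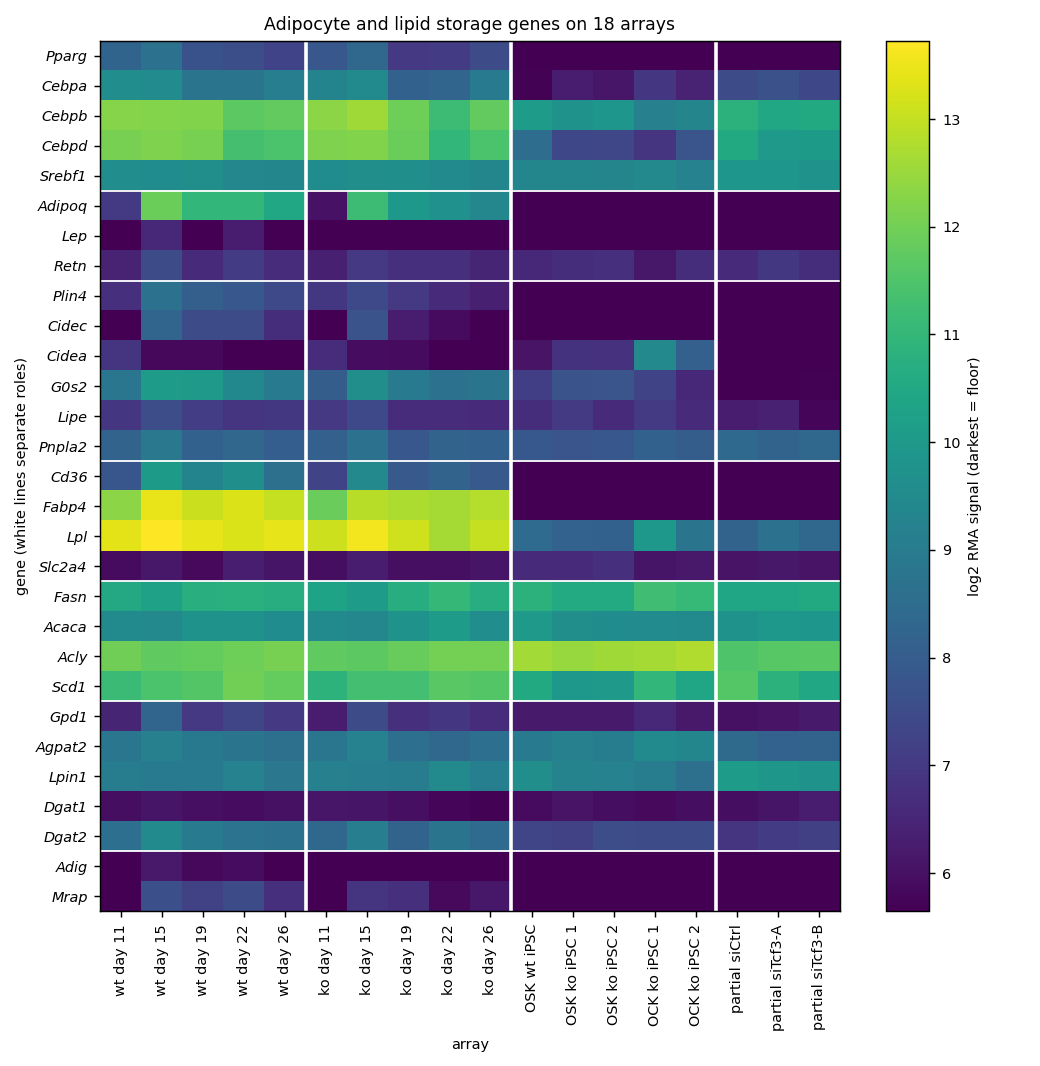
Log2 RMA signal of the 29 measured members (rows, grouped by role) on each of the 18 arrays (columns), as colour. Adipoq, Fabp4, Cd36, Plin4, Cidec, Mrap, Pparg, Lep and Adig are at the floor of 5.64 on all clone arrays, while the synthesis enzymes are bright throughout.

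Day 15 held the highest value of 19 of 29 measured members in wt cultures, against 16% of all genes, and of 19 of 27 in ko cultures, against 27.2%. The members highest on another day in wt were Cebpa, Cebpb and Cidea on day 11, Srebf1 and Acaca on day 19, Slc2a4, Fasn, Scd1 and Lpin1 on day 22, and Acly on day 26.

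The step from day 11 to day 15 was tested in limma with genotype and day as terms, a contrast added after the values had been seen. Of 29 members tested, 5 rose and 1 fell at an adjusted p under 0.05, where 0.381% of all 12845 genes passed, 0.132% higher (17 genes) and 0.249% lower (32 genes). Adipoq rose by 5.02 ± 0.13 (SE, log2, 2 arrays a day, adjusted p = 4.24e-05). The rises of Cd36 (2.19 ± 0.26), Gpd1 (1.51 ± 0.15), G0s2 (1.45 ± 0.18) and Fabp4 (1.06 ± 0.13) had adjusted p-values of 0.0366, 0.0194, 0.0428 and 0.0401. Cidea fell by 0.91 ± 0.12 (adjusted p = 0.0430). All 6 went the same way in wt and in ko, which the call itself favours, as disagreement between the genotypes widens the error.

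Cidec, Mrap and Plin4 had steps of such a size that missed the threshold. The difference was 2.35 ± 0.35 for Cidec (adjusted p = 0.0694), 1.60 ± 0.34 for Mrap (0.172) and 1.17 ± 0.34 for Plin4 (0.298). At an unadjusted p under 0.05 there were 17 members, and the median difference was 0.40 over the 29 members and 0.0021 over all genes. No regulator passed at either level, with a median of 0.08 over the 5. Adipoq alone was called under all 8 alternative settings. Without day 19 it was the only member called, without day 22 there were 3, and the mean of probe sets left 2.

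Macrophages also use Fabp4, Cd36 and Lpl. Of 14 macrophage markers 13 were above the floor on a day 15 array, and 2 rose from day 11. Their summed linear signal was 3334 in wt and 3376 in ko on day 11, and 4472 and 5937 on day 15. The macrophage integrin Itgam was at the floor on every culture array. Of 10 listed fat cell markers 8 had a named probe set, all of them members. Their sum, with values at the floor counted as 0, went from 395 to 4767 in wt and from 336 to 2896 in ko. Most of it was Adipoq, at 3849 and 2308 on day 15, and the others together went from 267 to 918 in wt and from 269 to 588 in ko. With Adipoq at the floor, the list summed to 270 to 329 in iPSC clones and to 225 to 281 in the partial clone. Of the 8, 7, Adipoq, Cidec, Lep and Adig among them, were above the floor on at least 1 of the 2 day 15 arrays. The part of the macrophage signal in the rise of the shared genes was not tested. Fibroblast markers summed to 154640 and 154987 on day 11 and to 151746 and 157036 on day 15, in wt and ko. In these bulk samples, fewer cells of a type and less RNA per cell cannot be told apart.

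**Figure D3:**
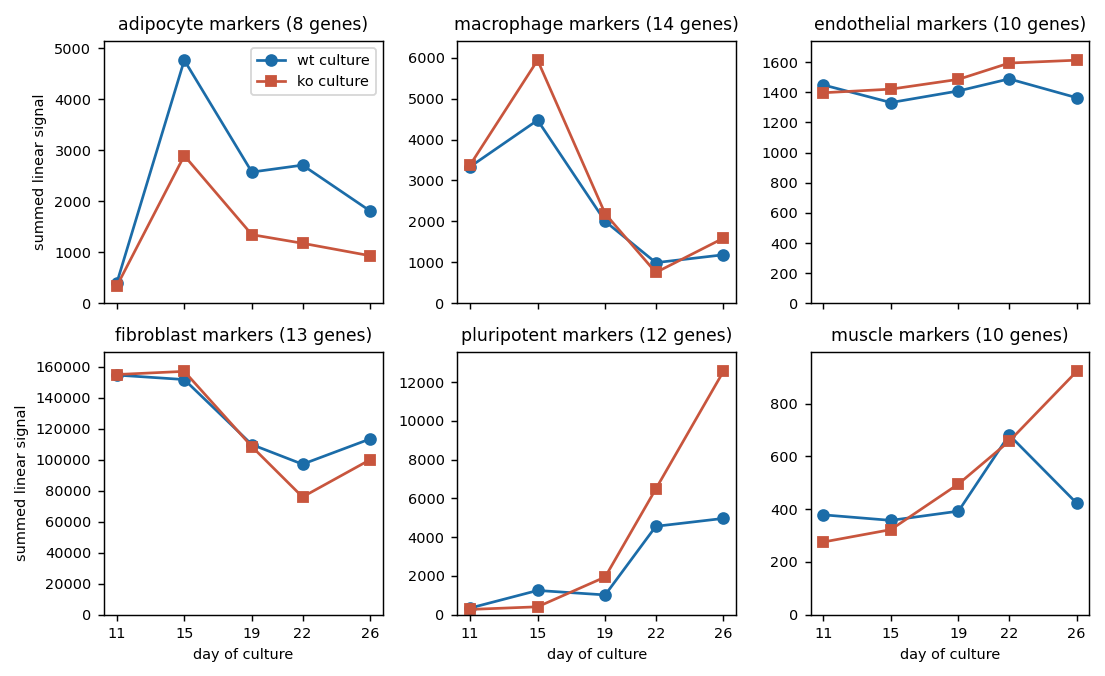
Summed linear signal of marker lists (vertical axes, each from 0) by day of culture for wt and ko, each point a single array. The fat cell list goes from 395 to 4767 in wt between days 11 and 15 and stands above ko on every day, while the macrophage list is highest on day 15 and higher in ko on that day.

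From day 15 to day 26, also a contrast added after the values were seen, 17 members fell and 3 rose of 29, where 39.8% of 13224 genes were called, 20.6% lower and 19.2% higher. The median difference was -0.60 over the members and -0.022 over all genes. All 5 regulators fell, Pparg most, by 1.15 ± 0.20 (SE, log2, adjusted p = 0.00867), followed by Cebpd (-0.77), Cebpb (-0.62), Cebpa (-0.49) and Srebf1 (-0.25). Of 6 droplet genes 5 fell, led by Cidec (-1.82 ± 0.35, adjusted p = 0.0105) and with Plin4 at -1.15, G0s2 at -0.98, Lipe at -0.69 and Pnpla2 at -0.67. Cidea, the sixth, was near or at the floor on both days.

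Adipoq fell by 1.61 ± 0.13 (adjusted p = 0.00218) and Cd36 fell by 1.48 ± 0.26 (adjusted p = 0.00852). Gpd1 (-1.06), Dgat2 (-0.73), Retn (-0.66), Agpat2 (-0.60) and Lpl (-0.43) fell as well. The difference of Fabp4 did not pass the threshold. Fasn (0.50 ± 0.13), Scd1 (0.34 ± 0.09) and Acly (0.32 ± 0.10) rose, with adjusted p-values of 0.0227, 0.0240 and 0.0461. Over the same interval 12 of 13 macrophage markers and 9 of 13 fibroblast markers fell, and 8 of 12 pluripotency markers rose. The part of these in the result was not tested.

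**Figure D4:**
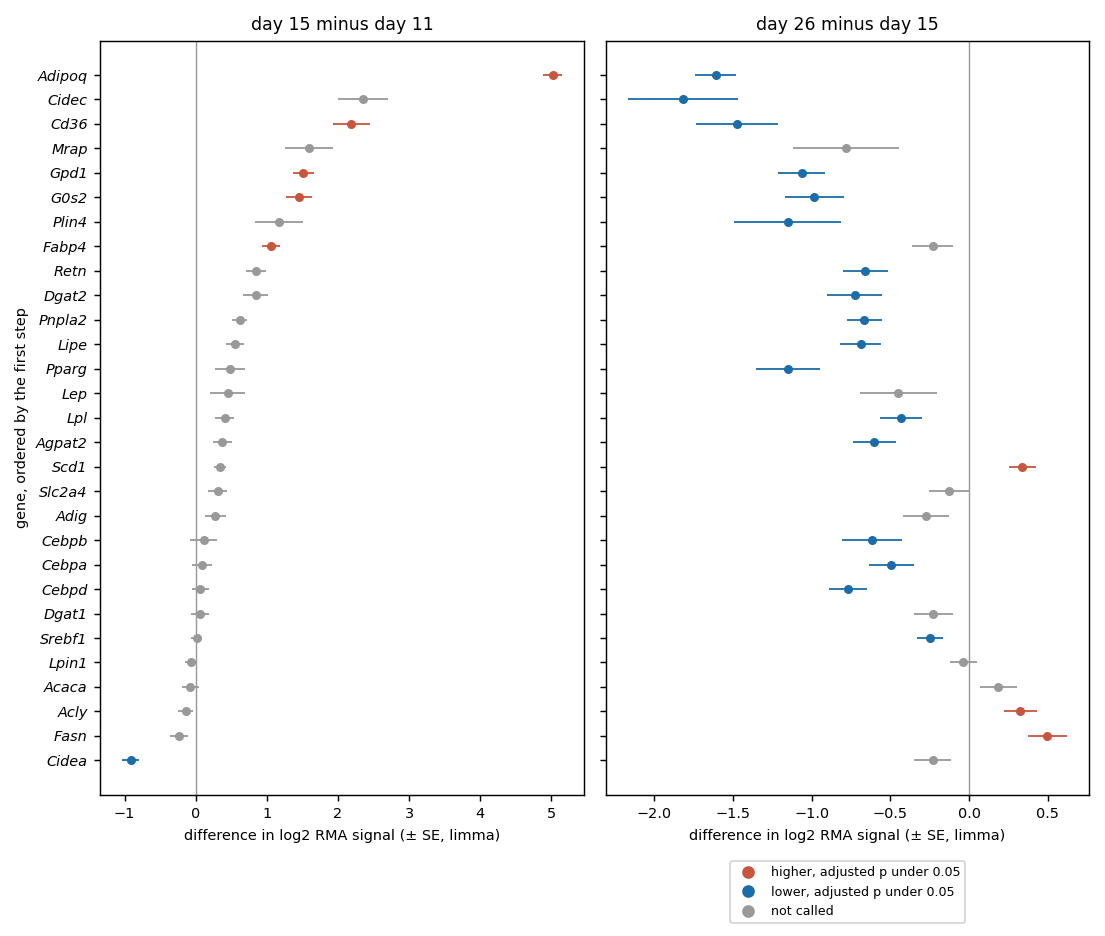
Difference of the mean of 2 arrays between days (horizontal axes, log2) for each measured member (rows, ordered by the first step) with its standard error from limma, coloured where the adjusted p was under 0.05. Adipoq lies at 5.02 in the first panel, and most members lie below 0 in the second, with Fasn, Acly and Scd1 above it.

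A straight line over days 11 to 26 describes such a rise and fall poorly. In that fit, the mean of the wt and ko slopes, 1 member rose and 4 fell of 29, where 36.6% of 13428 genes were called, 18% higher and 18.7% lower. Scd1 rose by 0.05 per day (adjusted p = 0.0095), and Cidea (-0.07), Pparg (-0.07), Cebpd (-0.06) and Cebpb (-0.05) fell. Without day 11 neither a member nor any other of 13374 genes was called. In a line through the 5 day means no member was called and 3.16% of all genes were. The smallest adjusted p among these 5 genes without day 11 was 0.120, for Cebpd.

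The slopes of wt and ko were then compared with each other. In this balanced design their difference is a contrast separate from the mean ko minus wt difference over the days. Independence from the choice of the list is not assured, since the floor can tie both together for genes such as Cidec and Mrap. No member of 29 differed in slope, at an adjusted or an unadjusted p under 0.05, and no gene of 13428 did after adjustment, while 208 had an unadjusted p under 0.05. That fit ignores that wt and ko arrays share days. With day as a block no gene passed either, but 1101 genes and 2 of the 29 members had an unadjusted p under 0.05. A test with so few calls does not show that the slopes were alike.

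Measured on matched days, as a description of the values that chose the list, 26 of 29 members had a lower mean in ko than in wt, where 42.5% of all genes did. The mean difference was -1.01 ± 0.20 (SD over 5 days, log2) for Adipoq, and its values on the 5 days were -0.96, -0.74, -1.03, -1.29 and -1.06. The ko cultures thus lay below wt before, at and after the peak by similar amounts. Cd36 (-0.94 ± 0.46), Cidec (-0.90 ± 0.63), Plin4 (-0.89 ± 0.61), Mrap (-0.70 ± 0.61), G0s2 (-0.66 ± 0.31) and Fabp4 (-0.45 ± 0.20) followed.

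On all 5 days Cebpa, Adipoq, G0s2, Cd36, Fabp4, Lpl, Scd1 and Gpd1, 8 members, were lower in ko, as were 1.28% of all genes. For Scd1 this depends on the probe set. A second one was lower in ko on days 11, 15 and 19. It was higher in ko on day 22 (8.90 against 8.65 in wt) and day 26 (8.25 against 8.07). Lpin1, the phosphatidate phosphatase, was higher in ko on all 5 days, by 0.17 ± 0.08. The early inducers Cebpb (-0.07 ± 0.32) and Cebpd (-0.07 ± 0.17) were higher in ko on 3 days and lower on 2, and Srebf1 (0.03 ± 0.06) was near 0. Pparg was lower in ko on 4 days and higher on day 26, by 0.24.

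The median difference over members by day was -0.07, -0.18, -0.26, -0.33 and -0.18, against 0.00 to 0.03 over all genes. Members more than 2-fold lower in ko numbered 0, 1, 5, 5 and 3 on those days. The share of all genes past that cut was not counted, and this difference chose the list. Fat cell markers summed lower in ko on all 5 days, with a log2 ratio from -0.23 on day 11 to -1.20 on day 22, but the list consists of members. Without Adipoq the log2 ratio was 0.01 on day 11 and between -0.96 and -0.63 on the later days. The sums without Adipoq on day 11, and in ko on day 26, were no higher than those of the iPSC clones. Macrophage markers summed higher in ko on 4 of 5 days, and fibroblast markers differed by a log2 ratio between -0.35 and 0.05. Pluripotency markers summed lower in ko on days 11 and 15, with log2 ratios of -0.34 and -1.64, and higher from day 19 on, at 0.94, 0.51 and 1.34. Their part in the difference was not tested.

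**Figure D5:**
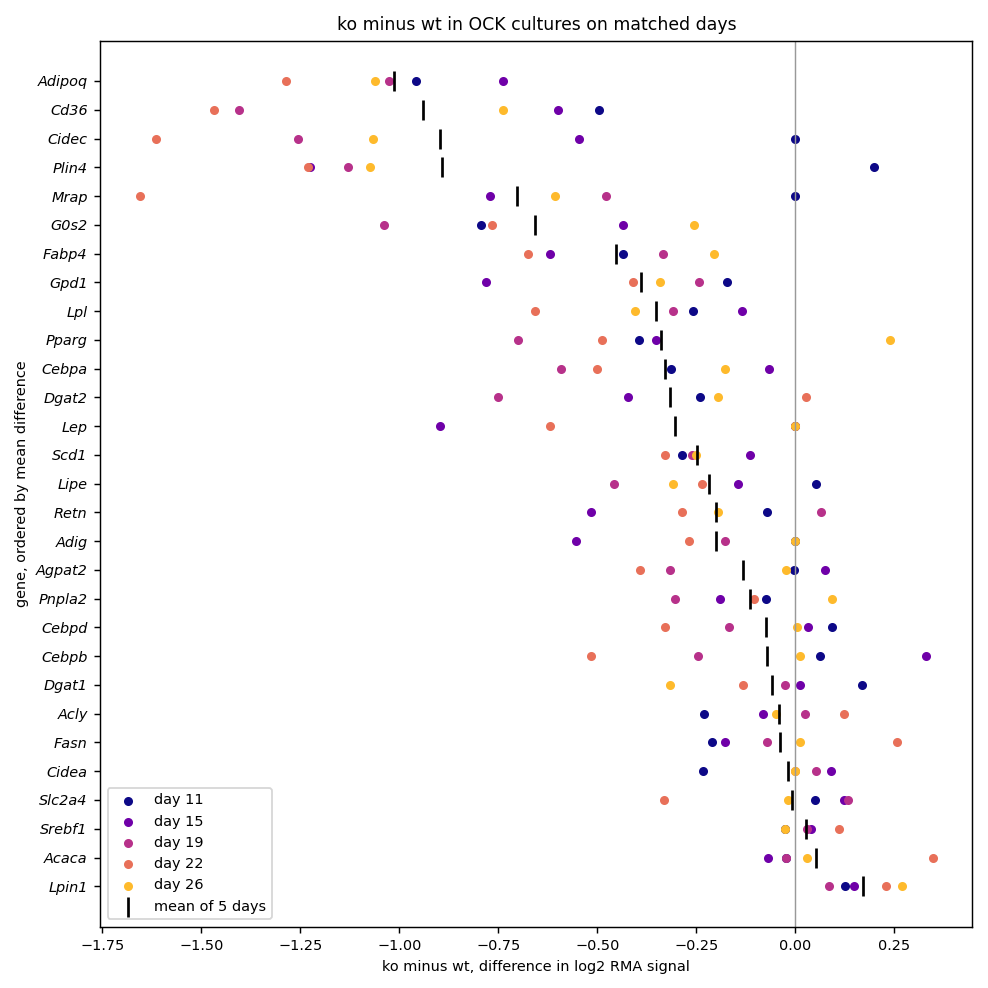
Log2 signal of ko minus wt on matched days (horizontal axis) for each measured member (rows, ordered by the mean), 1 coloured point per day with the mean over 5 days as a bar. Adipoq lies between -1.29 and -0.74 on all 5 days, and Lpin1 lies above 0 on all 5.

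Genes whose course was most like that of Adipoq over the 10 culture arrays, among 12442 genes above the floor on at least 5 of them, were ranked by Pearson's r. The arrays share days and genotypes, so r is a description. Outside the list the 5 highest were Wfdc21 (0.954), Mtarc1 (0.931), Car3 (0.928), Rilpl2 (0.904) and Cd1d1 (0.864). Among the members Fabp4 (0.939, second of all genes), Mrap (0.875), Cd36 (0.863) and G0s2 (0.846) came first, and Cidea (-0.818) last. The regulators had r between -0.17 and 0.05, Pparg included.

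Car3, the carbonic anhydrase that is abundant in fat and muscle, read 6.59, 11.63, 11.35, 11.55 and 12.07 in wt cultures, and 5.99, 10.48, 11.65, 9.63 and 10.11 in ko cultures. It shared the step to day 15 with Adipoq but not the later fall in wt. Wfdc21, a small secreted protein, read 6.19, 9.34, 9.01, 8.17 and 8.07 in wt, and the floor, 8.48, 8.26, 7.76 and 6.82 in ko, with the peak on day 15. Wfdc21 and Mtarc1 were at the floor on all clone arrays, as was Adipoq. Rilpl2 moved only between 9.70 and 9.91 in the cultures, so its high r rests on a small range.

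Of 78 further genes of fat cell differentiation and lipid handling, 74 had a named probe set. None of 63 tested passed between days 11 and 15 in limma, where 0.381% of all genes did, and 9 had an unadjusted p under 0.05. From day 15 to day 26, 8 rose and 22 fell of 65, against 19.2% and 20.6% of all genes, and 8 of the 9 tested droplet genes were among those that fell. Over the straight-line course 7 rose and 17 fell of 67, 24 in all, near the 36.6% of all genes that were called. The largest rises were those of Klf5 (0.16 per day), Fabp3 (0.12) and Ppargc1b (0.07) and the largest falls those of Cav1 (-0.13), Pcx (-0.09) and Irs1 (-0.09).

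Klf5, a factor of early fat cell differentiation that pluripotent cells also use, read 7.29, 7.21, 7.49, 8.87 and 8.64 in wt cultures, 7.36, 7.07, 7.80, 9.19 and 10.10 in ko cultures and 12.10 to 12.37 in iPSC clones. Cav1, the caveolar coat protein, read 12.04, 12.02, 11.29, 11.04 and 10.47 in wt, 12.01, 12.08, 10.86, 10.12 and 10.23 in ko and 6.68 to 8.94 in iPSC clones. The late cultures thus lay nearer to the iPSC clones than the early ones for both genes. Ucp1, the uncoupling protein of brown fat, was at the floor on all 18 arrays.

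Against the 5 established iPSC clones, the cultures of days 11 and 15 had 17 members higher and 4 lower of 29 in limma, where 75.4% of 13814 genes were called, 33.6% higher and 41.8% lower. Fabp4 was at least 127-fold higher, as the clones were at the floor (6.98 ± 0.22, SE, log2, adjusted p = 4.93e-14). Lpl (4.76 ± 0.29), Cebpd (4.57 ± 0.23), Cebpa (3.18 ± 0.20) and Cebpb (2.70 ± 0.17) followed as measured differences. Adipoq was at least 10.5-fold, Cd36 at least 7.98-fold, Pparg at least 6.23-fold and Plin4 at least 3.50-fold higher.

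Lower in the early cultures than in iPSC clones were Cidea (-1.12), Acly (-0.82), Fasn (-0.56) and Slc2a4 (-0.37). Centring each array on its median moved the median of all genes in this comparison from -0.08 to 0.02, and the differences above stand against that shift. In the cultures of days 22 and 26, 14 members were higher and 4 lower, against 29.1% higher and 39.6% lower, 68.6% in all, of 13824 genes. Adipoq was then at least 22.7-fold and Fabp4 at least 158-fold higher, while Pparg was at least 3.27-fold and Cebpa 2.48 ± 0.20 (log2) higher. Cidea was at least 3.50-fold lower, and Agpat2 (-0.62), Acly (-0.59) and Slc2a4 (-0.32) were lower too.

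With the partial clone set against the iPSC clones, 7 members were higher and 7 lower of 20, where 62.2% of 13571 genes were called, 26.3% higher and 35.8% lower. After centring the split was 9 and 5. The 3 partial arrays, with control siRNA, siTcf3-A and siTcf3-B, come from a single clone and were pooled as 1 group. The p-values therefore take no account of variation between partial clones. All 4 measured regulators were higher, namely Cebpd (2.60 ± 0.25, SE, log2, adjusted p = 8.65e-08), Cebpa (1.23 ± 0.22), Cebpb (0.98 ± 0.19) and Srebf1 (0.52 ± 0.06). Lpin1 (0.77), Scd1 (0.61) and Pnpla2 (0.40) were higher as well. Cidea was at least 3.50-fold lower, and G0s2 (-1.64), Acly (-1.02), Agpat2 (-0.91), Lipe (-0.67), Fasn (-0.39) and Slc2a4 (-0.34) were lower. The partial clone thus had C/EBP family signal with Pparg and Adipoq at the floor, and its fibroblast markers summed to 11216 to 14906, against 875 to 4104 in iPSC clones and 75921 to 157036 in cultures.

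Tcf3 loss was also compared in clones, which the choice of the list did not use. In OSK iPSC clones, 2 ko against 1 wt, 0 of 20 members passed in limma, 2 had an unadjusted p under 0.05, and 0.687% of 12670 genes passed. Those 2 were Cebpd, at 8.52 in wt and 7.39 and 7.37 in ko (-1.14 ± 0.33, SE, adjusted p = 0.224), and Acaca, at 9.98 in wt and 9.64 and 9.56 in ko (-0.38 ± 0.10, adjusted p = 0.204). G0s2 had a difference of 0.60 ± 0.27 and Cebpa of 0.52 ± 0.22, both with the ko clones higher but neither past the threshold. Of 60 further fat cell genes 2 passed, both higher in ko and named here after their values were seen, but neither was called in the 5 iPSC arrays alone or without either OSK ko clone, where 0 of all genes were. Klf2, an inhibitor of fat cell differentiation that pluripotent cells also use, read 10.62 in wt and 11.74 and 11.76 in ko (1.13 ± 0.15, adjusted p = 0.0435, and 0.0386 to 0.288 over its alternatives). Ephx2, an epoxide hydrolase, read 8.23 in wt and 9.66 and 9.90 in ko (1.55 ± 0.21, adjusted p = 0.0495, and 0.0506 to 0.288 over its alternatives).

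In the partial clone, 2 siRNAs against 1 control, 0 of 19 members passed, 2 had an unadjusted p under 0.05, and 0.111% of 12636 genes passed. Scd1 read 11.60 with control siRNA and 10.84 and 10.51 with siTcf3-A and siTcf3-B (-0.93 ± 0.26, SE, adjusted p = 0.231). Cebpb read 10.83 against 10.51 and 10.56 (-0.30 ± 0.11, adjusted p = 0.366). In both designs 1 control array limits what can be detected, and a p above the threshold does not show that levels were alike.

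Between OCK and OSK iPSC clones of ko cells, 2 members were higher and 2 lower in OCK of 20, where 10.7% of 12905 genes were called, 4.87% higher and 5.8% lower. Cidea was higher by 1.97 ± 0.39 (SE, log2, n = 2 and 2, limma adjusted p = 0.0300) and Fasn by 0.56 ± 0.11 (adjusted p = 0.0289). Cebpb (-0.59 ± 0.09, adjusted p = 0.0166) and Slc2a4 (-0.51 ± 0.09, adjusted p = 0.0258) were lower. On the probe sets used, both OCK clones lay on 1 side of both OSK clones for each of the 4 genes. A call on these same arrays makes that likely, and the share of all genes so split was not counted. A second probe set of Slc2a4, also near the floor, read 6.55 and 6.18 in OCK and 6.64 and 6.33 in OSK. On it the clones overlapped, while on a second probe set of Cebpb they did not. Calls over all genes moved along with those of members when arrays were left out. Without OSK ko clone 1 or clone 2 no member was called, and 0.0623% or 0.14% of all genes were. Without OCK ko clone 1 there were 8 members and 23.2% of genes, and without OCK ko clone 2 there were 12 and 28.4%. No member was called with the clone number as a block, where 1.1% of genes were, or in a fit of the 5 iPSC arrays, where 2.28% were.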

How the data were processed

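RNA of 18 mouse samples was measured on 1 Affymetrix array each, and groups and days came from the labels. The deposited log2 values were made by the authors with RMA, per the submitters' processing notes, with no version or settings known here. All columns of the deposited log2 table share 1 lowest value, 5.64 (log2 of 50), at which 44.9% to 46.6% of its values lie, a floor seen in the values and named in no label. Levels below it are only bounded, which shortens every difference that involves it. Of 40508 probe sets, 31076 had 1 symbol in the platform annotation, 636 several and 8796 none. Entrez numbers of 30878 were found in RefSeq, and 0 symbols changed. For 16 members with several probe sets, the one with the highest mean was used.

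Tests used limma 3.58.1 in R 4.3.3 with Benjamini-Hochberg adjustment over all genes tested and a threshold of 0.05, and the code was tested on simulated data. The prior variance was estimated on those genes that no array of a fit had at the floor. A gene with a floored array got at least that variance, and genes at the floor on all compared arrays were not tested. Clone comparisons came from 1 fit of 8 arrays, comparisons of cultures with clones from 1 fit of 18 arrays, and the steps between days from the 10 culture arrays with genotype and day as terms. Folds against a group at the floor are given as "at least".

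The members, the further gene lists, the markers and the tests were chosen with earlier results of these data known. All members above the floor were described, with the 3 largest rises and falls among the further genes that passed and the 5 genes outside the list most like Adipoq. Cultures of both genotypes were matched by day. Clone numbers in the labels are shared by the OCK and OSK clones of ko cells. Alternatives were the plain limma prior, quantile normalization, median centring, the mean of probe sets, a filter on genes at the floor, other samples in the fit, blocks, and leaving out each array or day. The number of arrays limits the precision.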

Additional observations from a re-analysis of the deposited data

Results flagged for a closer look

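Outlying days were looked for in 56 groups, each a member's 5 days in 1 genotype, with Dixon's test at its 95% critical value of 0.71, where chance alone picks out about 1 group in 20. Of these, 4 stood apart. Cidea on day 11 stood above the other days in both genotypes, at 6.9063 in wt against 5.64 to 5.83, and at 6.6732 in ko against 5.64 to 5.92. Fabp4 in ko on day 11, at 11.8829, lay below its other days at 12.63 to 12.85. Lpin1 in ko on day 22, at 9.4693, lay above its other days at 9.03 to 9.16. These are days of a course and not replicates, and the cause was not tested.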

How the results depend on the processing

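No called result reversed its direction under any alternative run. Of the untested ko minus wt means of members, 7 changed sign in at least 1 alternative, with reported means from -0.07 to 0.05: Slc2a4 (0.01 under quantile normalization), Cidea (0.04), Fasn (0.005) and Acly (0.005) without day 11, Cebpb (0.04), Slc2a4 (0.07) and Acaca (-0.02) without day 22, and Dgat1 (0.01) without day 26. Gpd1 went from -0.39 to -0.13 with the mean of probe sets. Members called numbered 5 for the straight-line course, 0 to 6 without a day in turn and 0 for the line through day means. For day 15 minus day 11 there were 6, with 1 to 4 without a day in turn, 1 under the plain limma prior, 2 with the mean of probe sets and 2 when genes with any floored array were left out. Day 26 minus day 15 had 20, with 14 to 21 without a day in turn. Early cultures against iPSC clones had 21 (17 to 22 without an array in turn, 13 without genes that have a floored array), and late cultures had 18 (15 to 18, and 10). The partial clone against iPSC clones had 14 (11 to 14). OCK against OSK clones had 4, with 0 to 12 without a clone in turn, 2 under the plain prior and 0 in the 5 iPSC arrays. Tcf3 siRNA had 0, and 1 in the 3 partial clone arrays alone. OSK ko against wt and the slope difference had 0 throughout. The members with a lower mean in ko numbered 26, and 23 to 26 without a day in turn. Beyond the construction of an alternative (fewer arrays or genes), the cause was not tested.

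Called under every alternative were 12 of 20 members for day 26 minus day 15, 15 of 21 for the early cultures, 15 of 18 for the late cultures and 10 of 14 for the partial clone, 1 of 6 for day 15 minus day 11, and 0 for the straight-line course and for OCK against OSK. The labels give same-numbered ko clones of OCK and OSK a common number and do not say whether they share a cell line. Their deviations had a correlation of -0.13 over 11603 genes. So few clones of each kind cannot show whether the number stands for a shared origin. With the clone number as a replicate block 0 members were called, and 0 with the numbers crossed, a pairing added after seeing the data. The floor limits what dim genes can show. With 1 array per genotype and day, or 1 control array, small differences were not detectable.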
